A study of Mus musculus with 6 samples.

Results

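Genes with roles in the 3′ end processing of histone mRNAs were followed in reprogramming fibroblasts that lacked Rnf20. The 10 genes were taken by name: Slbp, Npat, Casp8ap2, Lsm10, Lsm11, Zfp473, Cpsf2, Cpsf3, Sympk and Eri1. All 10 were found among the 16982 genes of the count table, and all 10 were among the 13386 genes that passed the filter on low counts. RNA-seq was performed on mouse embryonic fibroblasts (MEFs) of the C57BL/6 strain at day 3 after retroviral delivery of OCT4, SOX2, KLF4 and C-MYC, the factors that drive cells towards induced pluripotency. The 3 WT and the 3 Rnf20 knockout (Rnf20-/-) samples are labelled as separate replicates, every sample is labelled untreated, and the knockout was made in Rnf20 Flox/Flox; Tamoxifen-cre MEFs with 4-OH tamoxifen, which turns on a Cre recombinase that cuts out floxed exons in any cell that carries it. Whether the WT cells also received the drug is not stated in the sources used here, so an effect of the drug and the loss of Rnf20 cannot be told apart. The MEFs came from embryos taken in mid-gestation. The number of embryos behind each replicate is not given, and p-values therefore measure only the spread between these samples. Infected cells were moved onto growth-arrested feeder MEFs during the protocol, and the share of feeder RNA in these libraries was not tested.

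Most mRNAs end in a poly(A) tail, but the replication-dependent histone mRNAs end after a conserved stem-loop. The stem-loop binding protein SLBP holds this hairpin, and the U7 snRNP, a small RNA with a ring of Sm and Lsm proteins, pairs with the pre-mRNA downstream of it and brings a nuclease complex that cuts between them. The genes are clustered and active in S phase, where NPAT and FLASH (encoded by Casp8ap2) gather at the histone locus body, a nuclear body that forms on the histone genes. RNF20, with RNF40, is the E3 ligase that monoubiquitinates histone H2B, and in human cells this mark has been linked to correct 3′ end formation of histone mRNAs.

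The stem-loop is printed for 4 histone genes of these libraries because it is the sequence that SLBP and ERI1 recognise. Each line runs 5′ to 3′ on the coding strand, from the GENCODE transcripts of GRCm38, with the hairpin itself in capitals.
Hist1h1c, chr13:23739507-23739532, plus strand: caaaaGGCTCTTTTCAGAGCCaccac
Hist2h3c1, chr3:96247322-96247347, plus strand: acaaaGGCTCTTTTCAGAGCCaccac
Hist1h2ap, chr13:21833026-21833049, minus strand: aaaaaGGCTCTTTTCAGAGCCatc
Hist1h4d, chr13:23581945-23581970, plus strand: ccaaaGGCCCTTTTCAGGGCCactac
The first 3 carry the same hairpin and differ only in the bases around it, whereas Hist1h4d has another base pair within the stem. A hairpin of this kind was found in 18 of the 25 clustered histone genes tested, 13 of them with the form shown for Hist1h1c, and in 25 of 21834 other coding genes (0.115%). In 12 of the 18 the annotated transcript ran over 100 bases past the hairpin, by 840 bases for Hist1h1c and 1167 bases for Hist2h3c1, whereas 3 annotated bases followed it in Hist1h2ap. The libraries were selected for poly(A), so transcripts that end just after the hairpin without a tail are expected to be captured poorly.

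The RNA of the U7 snRNP is shown because Lsm10 and Lsm11 sit on it. The mouse gene Rnu7 lies on chr6:124741225-124741286, minus strand, and its 62 bases are printed with the Sm site, bases 21 to 31, in capitals.
Rnu7: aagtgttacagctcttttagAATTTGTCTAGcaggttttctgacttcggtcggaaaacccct
The capitals mark the stretch on which the ring of Sm and Lsm10/Lsm11 proteins assembles. Rnu7 itself carries no poly(A) tail and was not analysed here.

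Before the histone factors, the deletion and the libraries were checked. Rnf20 was measured at 106 to 107 normalized CPM (a gene's count scaled to the library total) in the WT libraries and at 16.4 to 18.7 in the knockout libraries, 16.8% of the WT mean (edgeR, adjusted p = 0.000163). Total counts ran from 20545442 to 21746898 over the 6 libraries, and 3 counts corresponded to 0.142 to 0.143 CPM. The third knockout library stood apart: chi-square per gene was 8.57 between knockout replicates 1 and 2 but 92.4 and 101 between either of them and knockout replicate 3, against 6.04 to 8.91 among WT pairs. Knockout replicates 1 and 3 held 0 and 1 counts over 4 Y-linked genes, and the other libraries held 4774 to 5608. All 10 fibroblast markers passed the filter, with summed levels of 30335 to 33097 CPM in WT and 31976, 39856 and 21634 CPM in knockout replicates 1 to 3. Of these markers 2 fell, Thy1 to 46.4% and Pdgfra to 43.0% of WT with separate groups, and 0 rose (2 lower and 2 higher at an unadjusted p under 0.05 in edgeR). The 10 macrophage markers summed to 52.9 to 106 CPM in WT and to 88.5, 57.1 and 258 CPM in the knockout. Of 6 endothelial markers 2 passed the filter, and Pecam1 and Cdh5 reached at most 11 and 5 counts in any library. The 5 epithelial markers that passed, of 8, summed to 43.8 to 46.1 CPM in WT and to 34.1, 23.9 and 3.57 CPM in the knockout.

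Of the 10 genes, Slbp, Lsm11 and Eri1 fell in the knockout at an adjusted p under 0.05, to between 62.9% and 66.0% of their WT means, and none rose. The same call was given to 16.6% of all genes tested in the lower direction and to 16.4% in the higher direction. Tests were made with the quasi-likelihood fit of edgeR, adjusted after Benjamini and Hochberg over all 13386 genes. At an unadjusted p under 0.05 the counts were also 3 lower and 0 higher, and DESeq2, edgeR's exact test and limma gave 3 and 0 as well. With the thresholds of the methods (FPKM over 1, a fold change over 2 and an adjusted p under 0.01), 0 of 10 genes were called in edgeR, as in DESeq2 and limma, against 2.08% of all genes lower and 1.50% higher. The log2 fold change was negative for 9 of the 10, with a median of -0.33 against -0.00032 over all genes tested. For 7 of the 10 every knockout library was below the lowest WT library, and for 0 every one was above the highest, against 28.2% and 26.6% of all genes. At an adjusted p under 0.01 in edgeR 0 of the 10 were called, against 4.89% of all genes lower and 4.98% higher, although 3 had an unadjusted p under 0.05.

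**Figure D1:**
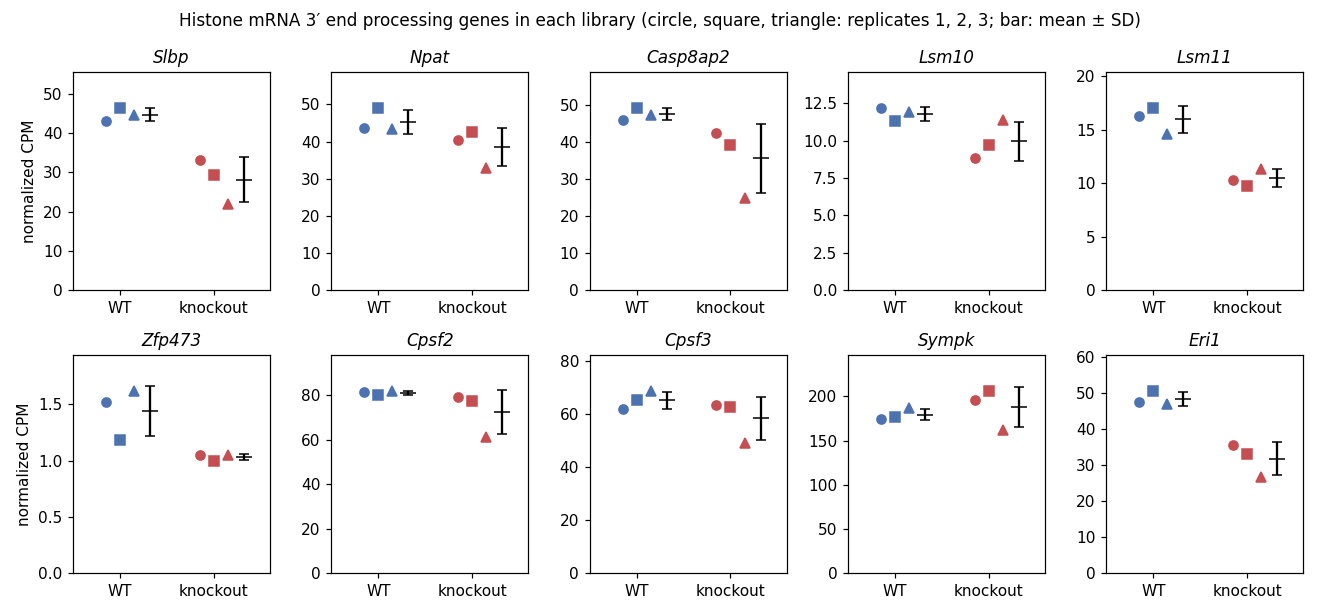
Normalized CPM (vertical axes, from 0) of the 10 genes in the 3 WT libraries (blue) and the 3 Rnf20 knockout libraries (red); circles, squares and triangles are replicates 1, 2 and 3, and the black bars are mean ± SD. The knockout libraries of Slbp, Lsm11 and Eri1 lie below their WT libraries, and the triangle of knockout replicate 3 is the lowest point of 7 of the 10 genes.

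Slbp encodes the protein that binds the stem-loop and stays with the mRNA through export, translation and decay. The level of the protein is known to follow S phase, and only the RNA was measured in these libraries. The gene lies on chr5:33634952-33652574, minus strand. It was measured at 43.2, 46.3 and 44.6 CPM in WT replicates 1 to 3 and at 33.1, 29.3 and 22.0 CPM in knockout replicates 1 to 3. The groups did not overlap, and the third knockout library was the lowest. The level in the knockout was 62.9% of WT, a log2 fold change of -0.67 ± 0.15 (SE, n = 3 and 3, adjusted p = 0.0182 in edgeR, 95% interval -1.02 to -0.31). An unclassified transcript on the opposite strand, Gm10459, overlaps 474 exon bases of Slbp, and since the counting is not stated to use strand, reads from both could be mixed.

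Eri1 encodes the 3′ exonuclease that binds the same hairpin and trims or degrades histone mRNA. It is annotated on chr8:35465253-35496196, minus strand. Its levels were 47.5, 50.4 and 46.8 CPM in WT and 35.5, 33.2 and 26.8 CPM in the knockout. Again the groups were separate, with the third knockout library lowest. The knockout mean was 66.0% of WT, a log2 fold change of -0.60 ± 0.12 (SE, n = 3 and 3, adjusted p = 0.0119 in edgeR, 95% interval -0.88 to -0.33).

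The U7 snRNP is represented by Lsm10, Lsm11 and Zfp473. Lsm11, which joins the ring on U7 and binds FLASH, lies on chr11:45928269-45944935, minus strand. WT replicates 1 to 3 had 16.3, 17.0 and 14.6 CPM, and knockout replicates 1 to 3 had 10.3, 9.69 and 11.3 CPM. For Lsm11 the third knockout library was not the lowest but the highest of its group, and all 3 were below every WT library. Its log2 fold change was -0.61 ± 0.11 (SE, n = 3 and 3), 65.5% of WT, with the smallest adjusted p of the 10 genes (0.0110 in edgeR, 95% interval -0.88 to -0.34). Lsm10, its partner in the ring, lies on chr4:126096623-126098584, plus strand. Lsm10 was at 12.2, 11.3 and 11.9 CPM in WT and at 8.83, 9.69 and 11.4 CPM in the knockout. The highest knockout library lay within the WT range, and the log2 fold change of -0.24 ± 0.13 (SE) did not pass the test (adjusted p = 0.189 in edgeR, 95% interval -0.55 to 0.066). Per length, in FPKM, the ratio of Lsm10 to Lsm11 was 5.70, 5.03 and 6.88 in WT and 7.41, 8.98 and 9.11 in the knockout, higher in every knockout library. The difference was not tested. Zfp473, the mouse counterpart of the human zinc finger protein ZFP100 that binds the U7 snRNP, lies on chr7:44731480-44751050, minus strand, and had the lowest counts of the 10 genes. It had 32, 25 and 34 counts in WT and 22, 21 and 22 in the knockout, where 25 counts have a 95% Poisson interval of 16.2 to 36.9 that covers counting error only. Its log2 fold change of -0.48 ± 0.26 (SE) had a 95% interval of -1.11 to 0.15 (adjusted p = 0.201 in edgeR), which holds both 0 and the value of Lsm11. Vrk3 overlaps 205 of its exon bases on the opposite strand.

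The histone locus body is represented by Npat and Casp8ap2. NPAT, a target of cyclin E and CDK2, activates histone gene transcription, and FLASH bridges the locus to the U7 snRNP through LSM11. Casp8ap2, on chr4:32615451-32653265, plus strand, was at 46.0, 49.2 and 47.5 CPM in WT and at 42.6, 39.3 and 25 CPM in the knockout. The third knockout library lay far below the other knockout libraries, which were themselves below WT. With this spread the log2 fold change of -0.42 ± 0.19 (SE) did not pass (adjusted p = 0.134 in edgeR, 95% interval -0.87 to 0.036). Npat, on chr9:53537047-53574342, plus strand, ranged from 43.5 to 49.0 CPM in WT and was at 40.4, 42.6 and 32.9 CPM in the knockout. Its groups did not overlap, and its log2 fold change was -0.23 ± 0.12 (SE, adjusted p = 0.168 in edgeR, 95% interval -0.51 to 0.046).

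The cleavage complex is shared with the machinery that makes poly(A) tails. CPSF3 (CPSF73) is the endonuclease, CPSF2 (CPSF100) its inactive partner and symplekin, encoded by Sympk, their scaffold. None of the 3 genes passed the test. Cpsf2, on chr12:101975988-102006424, plus strand, was at 81.5, 80.1 and 81.6 CPM in WT and 79.0, 77.5 and 61.1 CPM in the knockout, a log2 fold change of -0.16 ± 0.11 (SE, adjusted p = 0.285 in edgeR, 95% interval -0.42 to 0.098). Cpsf3, on chr12:21285391-21315056, plus strand, had WT levels of 61.9 to 68.4 CPM and knockout levels of 63.4, 62.5 and 48.9 CPM, so the groups overlapped. Its log2 fold change was -0.16 ± 0.11 (SE), with an adjusted p of 0.311 in edgeR and a 95% interval of -0.43 to 0.11. Sympk, on chr7:19024377-19054618, plus strand, was at 174.8, 176.2 and 186.3 CPM in WT and at 195.7, 205.5 and 162.3 CPM in the knockout. Here 2 knockout libraries were above every WT library and the third was below them, and the log2 fold change was 0.068 ± 0.10 (SE, adjusted p = 0.622 in edgeR, 95% interval -0.17 to 0.31). Itgb1bp1 overlaps 196 exon bases of Cpsf3, and Ndufb1-ps overlaps 147 of Cpsf2, both on the opposite strand.

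**Figure D2:**
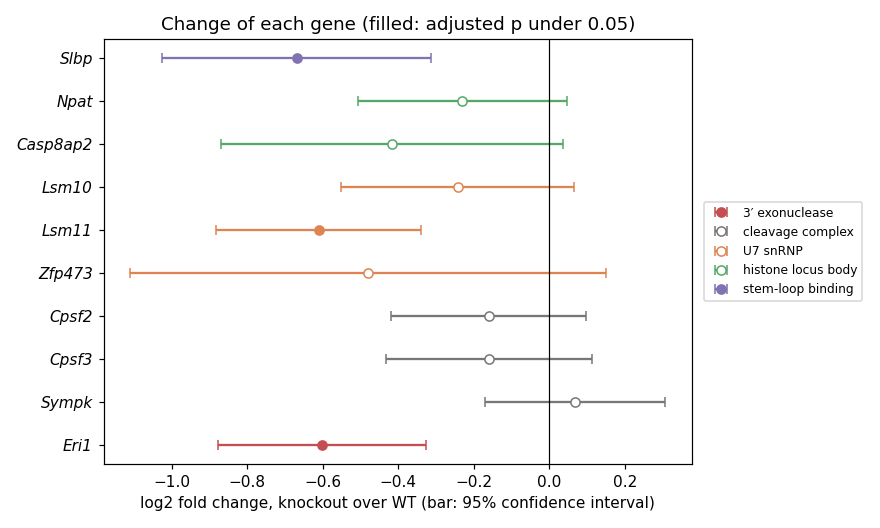
Log2 fold change, knockout over WT (horizontal axis), of each gene, coloured by its role, with bars for the 95% confidence interval; filled points have an adjusted p under 0.05. The intervals of Slbp, Lsm11 and Eri1 lie below 0, the interval of each other gene includes 0, and Sympk alone has a positive estimate.

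On the per-length FPKM scale the genes spanned 2 orders of magnitude in WT cells. Sympk was highest at 38.9 ± 1.96 (SD, n = 3), followed by Slbp at 27.9 ± 0.746, Cpsf3 at 24.5 ± 1.42, Lsm10 at 17.7 ± 1.22 and Cpsf2 at 16.7 ± 0.290. Of these neighbours only Lsm10 and Cpsf2 overlapped between libraries. Eri1 (11.9 ± 0.548), Npat (8.08 ± 0.50), Casp8ap2 (6.85 ± 0.188) and Lsm11 (3.04 ± 0.274) came next in FPKM, and Zfp473 was last at 0.343 ± 0.0308. The order in the knockout was the same except that Slbp, at 17.7 ± 3.55 FPKM, was below Cpsf3, at 21.9 ± 3.10 FPKM. Of the ring subunits particular to the U7 snRNP, Lsm11 was below Cpsf2, Cpsf3 and Sympk in mean FPKM in both groups, whereas Lsm10 was close to Cpsf2.

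The values depended on which library was left out. Without knockout replicate 3, whose S-phase genes summed to the lowest level, the log2 fold changes of Slbp and Eri1 were -0.52 and -0.49 and that of Lsm11 was -0.67, with adjusted p of 0.000425, 0.000317 and 0.000869 in edgeR. In the same fit Casp8ap2 (-0.21, adjusted p = 0.0271) and Lsm10 (-0.35, adjusted p = 0.0333) also passed as lower and Sympk (0.16, adjusted p = 0.0295) as higher, so that 5 genes were lower and 1 higher. Leaving out WT replicate 1, 2 or 3 left 2, 0 and 1 genes lower, and the adjusted p of Slbp in edgeR was then 0.0576, 0.0717 and 0.0705. Calls over all genes tested moved in the same way. With all 6 libraries 2218 genes were lower and 2195 higher, and without knockout replicate 3 these were 3280 and 3230. Without WT replicate 1, 2 or 3, 994, 833 and 702 were lower and 953, 782 and 694 higher. The counts among the 10 are thus not particular to them. Npat, Cpsf2 and Cpsf3 moved closer to 0 when knockout replicate 3 was dropped, to -0.12, -0.049 and -0.047 on the log2 scale, and did not pass. Sympk was at 0.042 without knockout replicate 1 and at 0.0028 without knockout replicate 2, and Lsm10 was at -0.16 without knockout replicate 1. No gene of the 10 changed its sign in the 6 fits. With a term for Y-linked transcripts, which sets knockout replicates 1 and 3 apart, 0 genes passed in edgeR at fold changes of -0.61 for Slbp (adjusted p = 0.187), -0.72 for Lsm11 (adjusted p = 0.0961) and -0.54 for Eri1 (adjusted p = 0.151). In that fit the knockout term compares knockout replicate 2 alone with WT, as it is the 1 knockout library with Y-linked transcripts. Its position below every WT library for Slbp, Lsm11 and Eri1 is therefore the same observation and not a separate one.

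**Figure D3:**
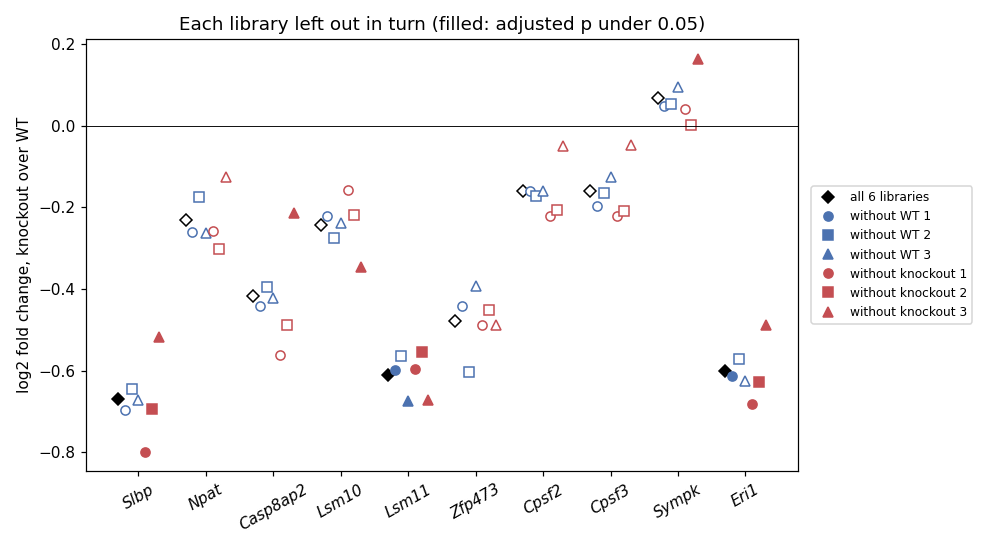
Log2 fold change, knockout over WT (vertical axis), of each gene with all 6 libraries (black diamond) and with each WT (blue) or knockout (red) library left out; filled symbols have an adjusted p under 0.05. The red triangles, without knockout replicate 3, are filled for 6 genes, among them Sympk at 0.16, and no gene changes its sign.

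The promoters of the genes were compared because several of the genes moved together. RefSeq windows from 250 bases before to 50 after the start, on GRCm38.p6, were at hand for 9 of the 10 genes, in 11 windows, and not for Eri1. Both strands were searched for the E2F words TTTGGCGC, TTTCCCGC, TTTCGCGC and TTTGCCGC, for CCAAT, the NF-Y box, and for TTTGAA, the cell cycle homology region. Slbp and Lsm11 are shown as the called genes with a window, and Casp8ap2 as the one gene with an E2F word, all 5′ to 3′ in the sense of the gene with matches in capitals.
Slbp, chr5:33652525-33652824, minus strand: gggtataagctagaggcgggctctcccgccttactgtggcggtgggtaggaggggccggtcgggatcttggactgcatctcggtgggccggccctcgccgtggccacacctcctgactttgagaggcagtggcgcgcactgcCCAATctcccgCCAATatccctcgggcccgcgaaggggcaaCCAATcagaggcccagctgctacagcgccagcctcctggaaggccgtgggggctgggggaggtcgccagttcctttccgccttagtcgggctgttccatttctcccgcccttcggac
Lsm11, chr11:45944886-45945185, minus strand: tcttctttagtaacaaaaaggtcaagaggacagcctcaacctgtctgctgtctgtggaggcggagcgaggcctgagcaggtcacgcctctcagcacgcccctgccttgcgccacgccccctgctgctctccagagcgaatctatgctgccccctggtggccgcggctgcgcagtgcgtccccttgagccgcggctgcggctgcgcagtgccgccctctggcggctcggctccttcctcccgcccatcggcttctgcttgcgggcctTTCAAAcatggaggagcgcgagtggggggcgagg
Casp8ap2, chr4:32615220-32615519, plus strand: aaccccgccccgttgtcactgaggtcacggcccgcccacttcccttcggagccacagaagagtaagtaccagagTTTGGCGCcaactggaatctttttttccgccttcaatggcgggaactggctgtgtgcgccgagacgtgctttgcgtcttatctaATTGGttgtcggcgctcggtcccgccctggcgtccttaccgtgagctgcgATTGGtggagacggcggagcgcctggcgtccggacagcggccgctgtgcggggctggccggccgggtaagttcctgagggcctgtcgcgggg
In Slbp the capitals are 3 CCAAT boxes, at positions -108, -97 and -67 from the start. In Lsm11 they are TTTGAA on the other strand, at position 17, and in Casp8ap2 the word TTTGGCGC at position -176 and CCAAT boxes on the other strand at -92 and -42. An E2F word was present in 1 of the 9 genes, against 2.26% of 32851 promoters, CCAAT in 5 of 9, against 37.4%, and TTTGAA in 2 of 9, against 17.9%. The 9 genes were counted by gene, with a match in any window, whereas the 32851 promoters were counted window by window. As Zfp473 had several windows, the counts and shares are not in the same unit. The printed matches do not overlap each other. A match is a run of letters and not a shown binding site.

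The wider pathway was described from lists chosen for their roles, each tested in the same fit. In that fit 16.6% of all genes tested were lower and 16.4% higher. In the list of S-phase genes, which leaves out Slbp and Casp8ap2 as members, 39 of 40 genes tested fell and 0 rose (40 lower and 0 higher at an unadjusted p under 0.05 in edgeR, median log2 fold change -1.33). Tyms, which makes thymidylate, fell to 55.9% of WT, and Gmnn, the inhibitor of replication licensing, to 39.2%. Rad51ap1, a recombination factor, fell to 29.7% and Cdca7, a chromatin factor, to 30.7%. The summed S-phase level was 2013 to 2111 CPM in WT and 1115, 997 and 585 CPM in knockout replicates 1 to 3. Slbp, Lsm11 and Eri1 fell by less than most of them: 38 of the 40 S-phase genes had a more negative log2 fold change than each of the 3, the exceptions being Rfc2 and Ubr7. In bulk RNA, fewer cells in S phase and less RNA per cell cannot be told apart.

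Among 18 genes of the histone locus and its kinases, 8 (44.4%) fell and 1 rose (median -0.27). Cdk2, the kinase that acts on NPAT, went from 49.8, 52.7 and 55.8 CPM in WT to 27.5, 27.8 and 19.3 CPM in the knockout, a log2 fold change of -1.08. Its cyclin Ccne2 (-0.89, also in the S-phase list), the mitotic kinase Cdk1 (-1.43) and the transcription factor E2f1 (-0.75) fell too, each with separate groups. Cdk9, the elongation kinase that has been linked to histone mRNA 3′ ends, was at 71.6 to 83.9 CPM in WT and 71.1 to 83.7 CPM in the knockout (log2 fold change 0.024, adjusted p = 0.863 in edgeR).

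Of the 7 Sm ring genes, 3 (42.9%) fell and 0 rose (4 and 0 at an unadjusted p under 0.05 in edgeR, median -0.26). Snrpe was at 55.4, 67.9 and 55.3 CPM in WT and at 40.8, 39.0 and 40.2 CPM in the knockout, a log2 fold change of -0.57, and Snrpg fell by 0.50 on the log2 scale. Both proteins sit in the U7 ring as well as in the spliceosomal rings. Snrpd1, which fell by 0.29, and Snrpd2, at -0.034, are the subunits that LSM10 and LSM11 replace on U7. In Snrpe, Snrpg and Snrpd1 the third knockout library was not the lowest of its group.

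The list for the cap, export, translation and decay of histone mRNA held 19 tested genes. Of these 5 (26.3%) fell and 1 rose (median -0.31), against 16.6% and 16.4% of all genes tested. The 5 that fell were Lsm2, Lsm3, Lsm4, Lsm6 and Lsm7, all subunits of the LSM1-7 ring that binds uridylated 3′ ends and also, but for LSM1, of the ring on U6 snRNA. Lsm6 and Lsm7 were named after their values were seen. Lsm2 was at 21.8, 22.5 and 21.2 CPM in WT and at 14.0, 13.6 and 13.2 CPM in the knockout (log2 fold change -0.68). Lsm3 fell by 0.73 and Lsm4 by 0.53 on the log2 scale. Lsm1 itself, which is found only in the decay ring, was at 19.6 to 20.4 CPM in WT and 18.6 to 21.1 CPM in the knockout and did not pass. Ncbp2, the small subunit of the nuclear cap-binding complex, rose by 0.42 (134.2% of WT). Among 17 tested genes of poly(A) cleavage and polyadenylation, 4 fell and 0 rose (5 and 0 at an unadjusted p under 0.05 in edgeR, median -0.18). The share that fell, 23.5%, was not far from the 16.6% of all genes. The 4 were Nudt21 (74.8% of WT), Cstf2 (74.2%), Clp1 (76.7%) and Cpsf4 (80.1%).

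**Figure D4:**
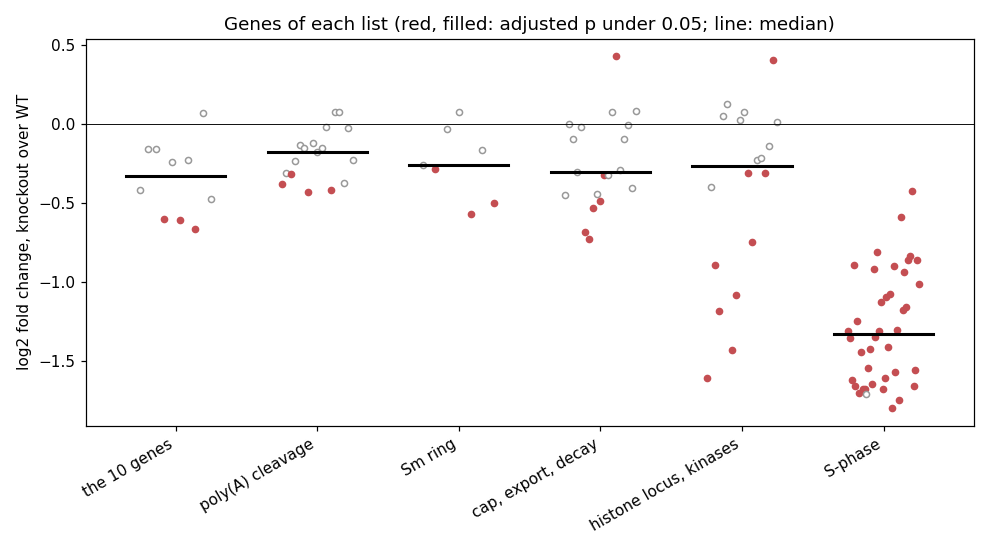
Log2 fold change, knockout over WT (vertical axis), of the 10 genes and of the genes in 5 lists; each point is a gene, red filled points have an adjusted p under 0.05, and the black line is the median. The medians of the 10 genes and of the first 4 lists lie between -0.33 and -0.18, and that of the S-phase list lies at -1.33.

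The histone transcripts that these factors process were captured in part. Of 59 clustered histone genes 25 passed the filter. In the knockout 14 (56%) were higher and 1 (4%) lower, against 16.4% and 16.6% of all genes tested. Some of the higher genes had few or no counts in WT and passed the filter only through the knockout libraries. Their call as higher was thus favoured by the filter. Summed levels of the tested histone genes were 158.5 to 196.8 CPM in WT and 304.3, 267.0 and 427.6 CPM in knockout replicates 1 to 3. Hist1h1c was at 53.9, 45.3 and 48.7 CPM in WT and at 124.7, 113.7 and 170.1 CPM in the knockout, while Hist1h2ap was at 57.0, 58.0 and 79.4 CPM against 13.5, 13.5 and 5.29 CPM. Hist2h3c1 was at 1.57 to 1.81 CPM in WT and at 13.1, 8.64 and 21.3 CPM in the knockout. Reads of near-identical histone genes could be split between copies by the counting, so the value of a single gene is uncertain. Total histone mRNA cannot be read from poly(A)-selected libraries.

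The genes whose pattern over the 6 libraries was most like that of Lsm11 were Rpl36a, a ribosomal protein gene, Hmga1, a chromatin protein gene, then Tmem219, Rbmx2 and Mgme1. Their root mean square differences from Lsm11 in centred log2 CPM were 0.0457, 0.0486, 0.0542, 0.0600 and 0.0658. Rpl36a was at 327.6, 360.4 and 311.7 CPM in WT and 203.5, 207.7 and 233.3 CPM in the knockout, with the same highest library in each group as Lsm11. Rnf40, the partner of RNF20, had a log2 fold change of -0.019 (adjusted p = 0.889 in edgeR) and changed sign under other settings.

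Knockout replicate 3 was the lowest library for 7 of the 10 genes, against 34.0% of all genes tested. The S-phase, fibroblast and epithelial marker sums were also lowest and the macrophage marker sum highest in that library. The part of these in the values of the 10 genes was not tested.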

How the data were processed

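RNA of 3 WT and 3 Rnf20 knockout cultures at day 3 was poly(A)-selected with a stranded kit and sequenced in pairs. The authors aligned reads to GRCm38/mm10 with HISAT2 2.1.0 and deposited raw counts per gene and FPKM values from Cufflinks 2.1.1. The counting program and its strand setting are not given in the sources used here. Sample columns were matched to their labels by name, and totals were 20545442 to 21746898 counts per library. Deposited counts were analysed with edgeR 4.0.16 (TMM, filterByExpr, quasi-likelihood test, Benjamini-Hochberg adjustment over 13386 genes; R 4.3.3), and the scripts were tested on simulated data. Standard errors were derived as |log2 fold change|/√F. CPM are TMM-normalized, SDs are over 3 libraries, and Poisson intervals cover counting error only. Deposited FPKM values were used for levels per length. Alternatives were DESeq2 1.42.0, limma 3.58.1 on log2(FPKM + 1) and log2(FPKM + 0.1), other scalings, no filter, a replicate block, each library left out and, chosen after seeing the data, a term for Y-linked transcripts.

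The members and lists were chosen with earlier results of these data known. The text names all 10 members, from each pathway list at most the 4 called genes of smallest adjusted p, the 3 clustered histone genes of smallest adjusted p, the 5 genes nearest to the member of smallest adjusted p, Rnf20 and Rnf40. Cdk9, Lsm1, Lsm6, Lsm7, Snrpd2, Rfc2, Ubr7, Thy1, Pdgfra and Hist1h4d were named outside this rule after their values were seen, and 1 called gene of the histone locus list is not reported here. Positions are from GENCODE on GRCm38 and promoters from RefSeq on GRCm38.p6.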

Additional observations from a re-analysis of the deposited data

How the results depend on the processing

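Slbp, Lsm11 and Eri1 kept a negative log2 fold change in all 15 alternatives and passed 0.05 in 11, 13 and 12 of them. Their ranges were -0.80 to -0.52, -0.72 to -0.49 and -0.68 to -0.49, with adjusted p from 0.000425 to 0.187, 0.000809 to 0.0961 and 0.000239 to 0.151. At an adjusted p under 0.01 (edgeR) 4.89% of all genes tested were lower and 4.98% higher. Lower genes were 0 of the 10, 0 of 17 for poly(A) processing and 1 of 7 for the Sm ring. They were 3 of 19 for cap and decay, 4 of 18 for the histone locus and 19 of 40 for S phase. Of 25 histone genes 6 were higher, and Hist1h2ap alone was lower. Ncbp2 was higher in the cap and decay list, and 0 were higher among the 10 and in the other lists. With the term for Y-linked transcripts, chosen after seeing the data, the number of genes passing was 0 for the 10 genes and in every list in either direction except for 1 histone gene that was higher, and 29 genes were lower and 80 higher over all genes tested. That fit leaves fewer degrees of freedom, and its knockout estimate rests on knockout replicate 2 alone against WT. Library size alone, without TMM, called 8 cap and decay genes lower and, over all genes, 2684 lower and 1750 higher against 2218 and 2195. Poly(A) genes lower were 2 with the exact test, without a filter and with limma at either pseudocount, and limma called 8 histone genes higher at either pseudocount. When 1 library was dropped at a time, the 10 genes gave 0 to 5 lower and 0 to 1 higher, poly(A) genes 0 to 6 lower, Sm genes 1 to 3 lower, cap and decay genes 3 to 10 lower and 1 to 4 higher, locus genes 5 to 9 lower and 0 to 1 higher, S-phase genes 19 to 40 lower and histone genes 7 to 15 higher. The highest of these came without knockout replicate 3 and the lowest mostly without a WT library. Over all genes tested, lower calls in the same fits ran from 702 to 3280 and higher calls from 694 to 3230. The cause was not tested. At the thresholds of the methods 0 of the 10 genes were called in every alternative. In several alternatives hardly any gene passed them, so the 0 of 10 says little there. Over all genes they called 0 lower and 0 higher with the replicate block. Without WT replicate 1, 2 or 3 they called 1, 1 and 1 genes lower and 3, 1 and 0 higher. Rnf40 was reversed at 0.0022 and 0.0023 with limma on log2(FPKM + 1) and log2(FPKM + 0.1), at 0.081 with the Y-linked term, and, when libraries were dropped, its value ran from -0.068 to 0.057.

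No pairing by replicate number was seen: deviations of same-numbered libraries correlated at -0.066, 0.037 and 0.011, and those of other pairs at -0.069 to 0.072. With 3 libraries a group and knockout replicate 3 apart from the others, this check could miss a pairing. With the replicate block 3 of the 10 genes were lower (adjusted p = 0.0373 for Slbp, 0.0433 for Lsm11 and 0.0292 for Eri1 in edgeR), 1 poly(A) gene was lower, and 1490 genes were lower and 1385 higher over all genes tested.

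With 3 libraries a group and 1 that stands apart, precision is that of the 95% intervals given, Zfp473 rests on 21 to 34 counts a library, and the drug, the source of the cultures and the knockout cannot be fully told apart.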
